A study of Homo sapiens with 6 samples.

Results

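The 68 genes described here were those that the array detected in HOXA5-overexpressing TFK-1 cells and not in normal control cells, out of 18336 genes measured by at least 1 probe with a single gene symbol. A gene belonged to them where 1 of its probes carried the deposited flag 0 on all 3 HOXA5 overexpression arrays and the other flag value on all 3 normal control arrays. Probes with that other value are called dim here, since in the values they are those of low raw intensity. Genes with a further single-symbol probe at flag 0 on any control array were left out, and the brightest probe with the pattern represented each gene. The genes were chosen by the flags of these same arrays, so their intensities and changes below are a description of the choice and carry no test. TFK-1 is an established cell line from an extrahepatic cholangiocarcinoma. Both groups consisted of TFK-1 cells that had been transduced with lentivirus and kept under puromycin as stable lines, 1 group with HOXA5 overexpression and 1 labelled normal control, with 3 samples each on Human OneArray slides read in 1 colour. The labels name neither separate cultures nor separate transductions, so the spread behind every p-value may be technical only, and a feature of either transduced line cannot be told apart from HOXA5 itself.

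HOXA5 is a homeodomain transcription factor that gives cells their position along the body axis during development, and homeodomains of this family contact short AT-rich DNA with a TAAT core. A gene that is silent in 1 state of a cell and transcribed in another can cross the detection limit of an array between them. A dim probe is treated here as having signal too close to background to be ranked. This is an assumption, since the sources used here do not give the meaning of the flags. On it, a dim probe gives an upper limit on the transcript and not its absence, and the change of such a gene can only be bounded from below. The bound used here sets the mean normalized log2 intensity of the 3 HOXA5 overexpression arrays against the mean, over the control arrays, of the lowest normalized value at flag 0 or the probe's own value where that was higher. It is written as "at least N-fold" for the settings as reported, and it moved with the offset, as given at the end.

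The targeted gene was looked at before the others, to test the labels. The brighter HOXA5 probe (PH_hs_0035417) had raw intensities of 585, 502 and 312 in HOXA5-overexpressing cells, against 110, 118 and 49 in normal control cells (log2 fold change 1.94 ± 0.12 SE, limma, adjusted p = 0.000766, n = 3 each). The other HOXA5 probe (PH_hs_0002929) moved the opposite way, with 152, 155 and 96 in HOXA5-overexpressing cells and 214, 222 and 153 in normal control cells (-0.34 ± 0.07 SE, limma, adjusted p = 0.0253). Where either probe lies on the HOXA5 transcript is not given in the sources used here. Median raw intensity of all probes was 95 to 177 on the HOXA5 overexpression arrays and 126 to 180 on the control arrays, and 17150 to 20970 probes were at flag 0 on the HOXA5 overexpression arrays and 19327 to 21154 on the control arrays. HOXA5 overexpression replicate 3 was the dimmest array by both measures. Of 14 biliary epithelial markers measured, 11 were at flag 0 on all 6 arrays and 1 was dim on all 6. Of 27 leukocyte markers 11 were at flag 0 on all 6 arrays and 8 dim on all 6. Of 20 hepatocyte markers 7 were at flag 0 on all 6 and 9 dim on all 6. Of 18 fibroblast and endothelial markers these counts were 4 and 8. Markers of other cell types were thus at flag 0 in part, so the flags of these lists do not identify the cells.

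By the flags, 90 probes of 89 genes were detected only in HOXA5-overexpressing cells, and 21 of these genes were left out for another probe, which left the 68 genes, or 0.371% of those measured. The same rule with the groups exchanged found 70 probes of 69 genes and kept 37 genes detected only in normal control cells, or 0.202%. The wider count ran the other way, because 11485 genes had a probe at flag 0 on all HOXA5 overexpression arrays and 12580 on all control arrays. Among the 68 genes 19 were higher in HOXA5-overexpressing cells by a bound of at least 2-fold, and among the 37 genes of the exchanged rule 0 reached 2-fold in the opposite direction, with a highest bound of 1.99-fold for PIGW, a gene of glycosylphosphatidylinositol anchor synthesis. The floors of these bounds differ: flag 0 began at a normalized log2 intensity of 6.65, 6.72 and 7.36 on HOXA5 overexpression replicates 1, 2 and 3, against 6.62, 6.74 and 6.99 on normal control replicates 1, 2 and 3. The high floor of HOXA5 overexpression replicate 3 lowers the bounds of the exchanged rule, and PIGW lies just under 2-fold. The same floor raises the bounds of the 68 genes, since each was at flag 0 on that array and so at 7.36 or above. Their median bound was 1.70-fold with all arrays and 1.62-fold without that replicate. The sizes of both sets of bounds are therefore not directly comparable.

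The count depended on single arrays. Without HOXA5 overexpression replicate 3 the rule found 203 genes, since 135 further genes were dim on that array alone. Only 11 genes were dim on HOXA5 overexpression replicate 2 alone and 1 on replicate 1 alone. On the control side, 9, 11 and 3 genes failed the rule through replicate 1, 2 or 3 alone. The genes found only in normal control cells numbered 134 without HOXA5 overexpression replicate 1, 86 without HOXA5 overexpression replicate 2 and 95 without normal control replicate 3. The larger of both counts therefore changed with the array left out.

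**Figure D1:**
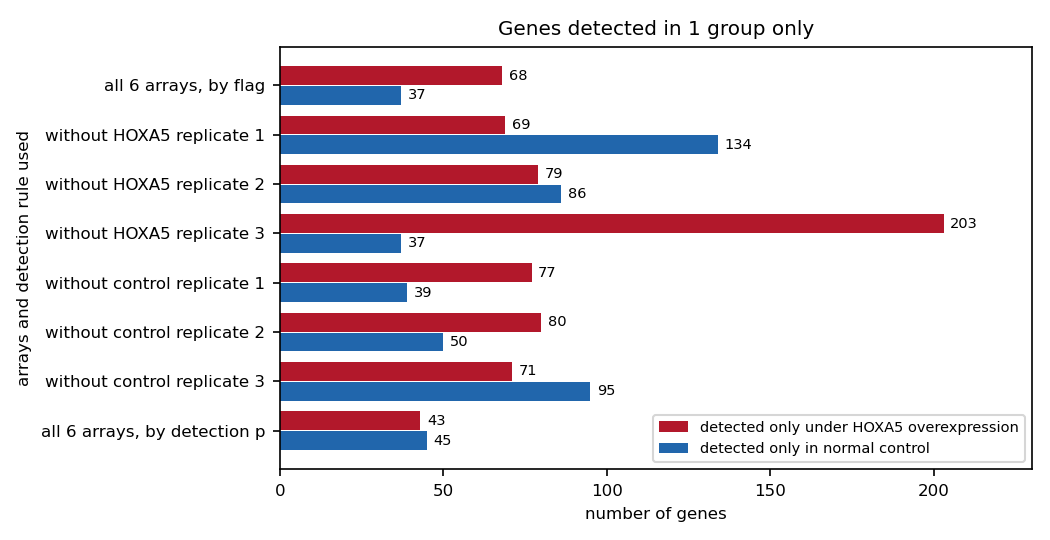
Number of genes detected only under HOXA5 overexpression (red) and only in normal control (blue), for all 6 arrays, with each array left out in turn, and with the deposited detection p-value in place of the flag. The red bar is 68 with all arrays and 203 without HOXA5 overexpression replicate 3, and by detection p-value the bars are 43 and 45.

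The deposited table holds a second measure of detection, a p-value for each probe and array, and it drew the line elsewhere. Of the 68 genes, 55 had a detection p-value under 0.01 on all 3 HOXA5 overexpression arrays, while 49 of the 68 had one under 0.01 on at least 1 control array and 21 on all 3 control arrays. On single arrays 15.1% to 22.4% of dim probes had such a p-value. A rule built on the p-value alone found 43 genes detected only in HOXA5-overexpressing cells and 45 only in normal control cells, and shared 18 genes with the 68. These 18 were SH2D3A, FUT3, LEMD1, DNER, CPQ, IFITM10, RGS16, MYO15B, CFAP53, L3MBTL1, FAM221A, TMEM178A, MOSMO, MAP3K8, TBXAS1, BDKRB2, CORIN and NTN5. The remaining genes were dim in normal control cells by flag, and the words "detected only" hold for them on that measure alone. Of these, 13 had a detection p-value of 0.01 or more on at least 1 HOXA5 overexpression array, FEZF1-AS1, TIMP3, PMEPA1 and SPRY2 among them.

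All 68 genes had higher values on every HOXA5 overexpression array than on any control array, in raw and in normalized intensity, which the rule all but fixed. In normalized intensity 21.0% of all genes also showed this. On the normalized log2 scale their fold changes ran between 0.56 and 5.58, with a median of 1.19 against -0.01 over all genes. With the thresholds of the study's methods (a log2 fold change of 1 or more together with an adjusted p under 0.05), 39 of the 68 were called higher by limma, beside 3.83% of all genes, and 64 passed the adjusted p alone, beside 13.1% of all genes. The 4 that did not pass it were CFAP53, CD47, MIR600HG and GNMT. The bound had a median of 1.70-fold, with 3 genes at 4-fold or more, 49 under 2-fold and 16 under 1.5-fold.

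**Figure D2:**
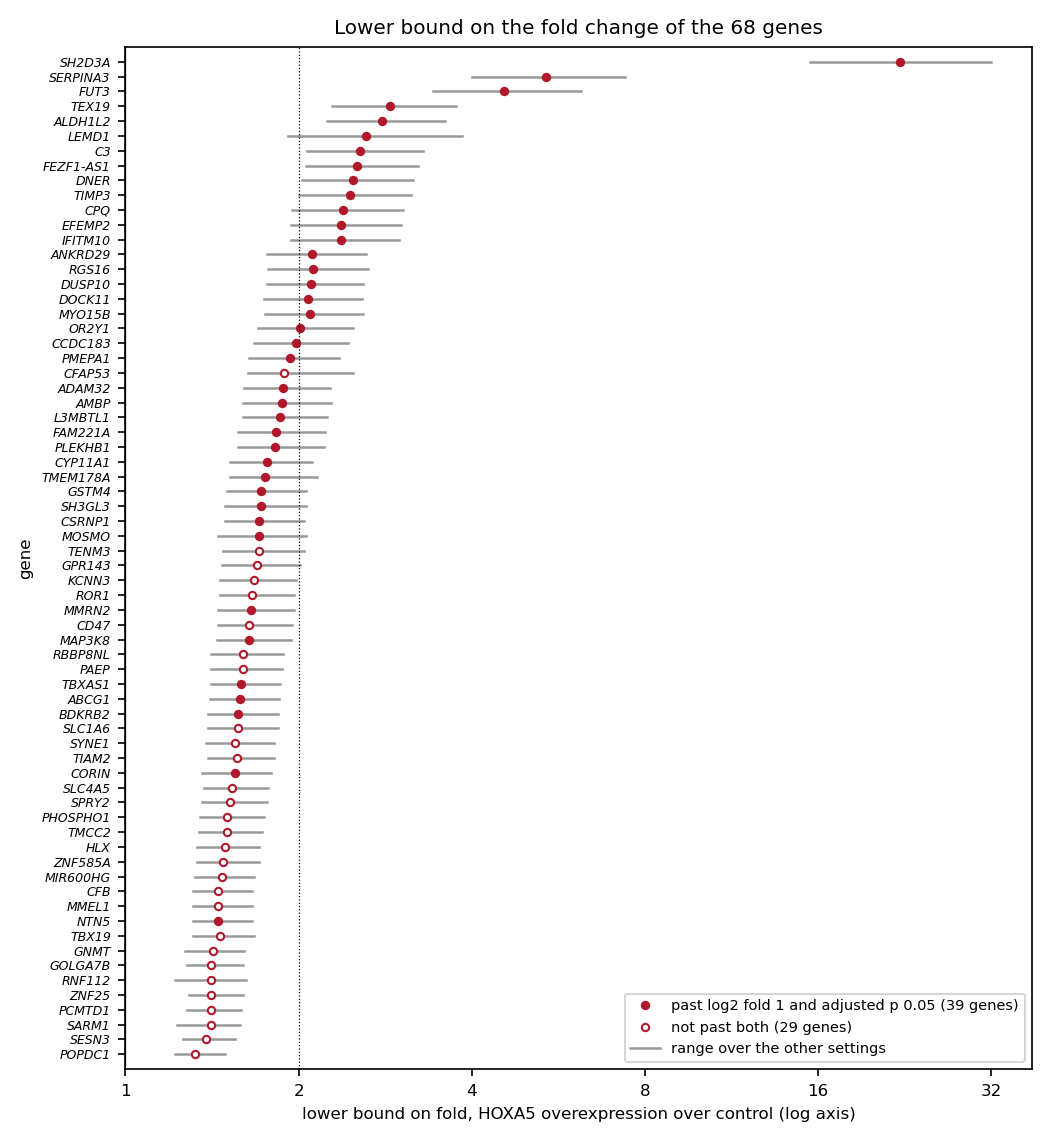
Lower bound on the fold change of each of the 68 genes, HOXA5 overexpression over normal control, on a log axis. Points are the bounds as reported, filled for the 39 genes past both thresholds, and grey lines run over 11 other settings of scaling, offset and arrays; SH2D3A stands alone at 22.2-fold, and SERPINA3 and FUT3 follow at 5.38-fold and 4.55-fold.

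Most of the genes were faint even where detected. Their median raw intensity was 170, 138 and 102 on HOXA5 overexpression replicates 1, 2 and 3, against 45, 42 and 36 on normal control replicates 1, 2 and 3, and flag 0 began at a raw intensity of 58 to 67. Only 30 genes had a raw intensity of at least 100 on all HOXA5 overexpression arrays, 3 at least 300 and 1 at least 1000. At the lower end, 6 genes had a raw intensity of 10 or less on all control arrays, whereas 20 had 40 or more on all of them. The highest raw value among the HOXA5 overexpression arrays was a median of 1.77 times the lowest. In raw intensity 51 genes were lowest on replicate 3, the dimmest array. After normalization 49 were lowest on replicate 2 and 46 highest on replicate 3.

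**Figure D3:**
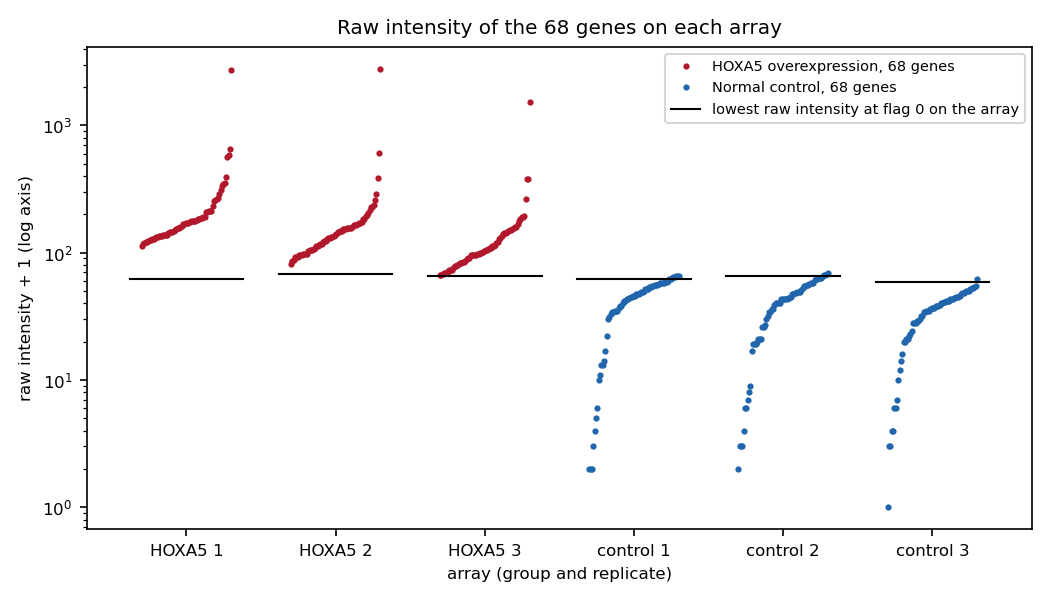
Raw intensity plus 1 of the 68 genes on each array, sorted within the array, on a log axis, with the lowest raw intensity at flag 0 as a black line. All points of the HOXA5 overexpression arrays lie above the line, which is at 61, 67 and 64 before adding 1, and the control points lie below it or within a few units of it.

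The promoter sequences of the genes were then searched for short motifs. Windows of 300 bases around the start of the gene, 250 before it and 50 after it, were matched by symbol for 55 of the 68 genes in RefSeq (GRCh38.p14). The unmatched genes were ANKRD29, ABCG1, FEZF1-AS1, TEX19, RNF112, ADAM32, C3, RBBP8NL, PCMTD1, IFITM10, DNER, ALDH1L2 and CPQ. Both strands were read, and each share is set beside the same share over the windows of 14641 measured genes. TAATTA, which joins a TAAT core on each strand, was in the windows of 3 genes (CFAP53, TBX19 and SESN3), or 5.45% of the 55 against 3.23% of all windows. The GC box GGGCGG was in 28 windows, or 50.9% against 60.1%. Shown 5′ to 3′ are the 250 bases before the start of the 3 matched genes with the largest bounds and of the 3 genes with TAATTA, with TAATTA and GGGCGG or its reverse complement in capitals. SH2D3A is at chr19:6767436-6767685 (minus strand), SERPINA3 at chr14:94612141-94612390 (plus), FUT3 at chr19:5851450-5851699 (minus), CFAP53 at chr18:50266496-50266745 (minus), TBX19 at chr1:168280627-168280876 (plus) and SESN3 at chr11:95232476-95232725 (minus).
SH2D3A: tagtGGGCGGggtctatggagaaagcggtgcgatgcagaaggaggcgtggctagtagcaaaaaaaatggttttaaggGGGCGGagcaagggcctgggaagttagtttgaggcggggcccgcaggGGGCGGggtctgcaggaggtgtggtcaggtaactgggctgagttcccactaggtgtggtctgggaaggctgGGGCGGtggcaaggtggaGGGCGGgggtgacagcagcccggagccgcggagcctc
SERPINA3: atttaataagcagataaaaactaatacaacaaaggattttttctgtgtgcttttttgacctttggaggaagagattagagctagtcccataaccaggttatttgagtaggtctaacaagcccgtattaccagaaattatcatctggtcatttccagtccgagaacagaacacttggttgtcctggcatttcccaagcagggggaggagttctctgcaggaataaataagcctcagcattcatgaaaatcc
FUT3: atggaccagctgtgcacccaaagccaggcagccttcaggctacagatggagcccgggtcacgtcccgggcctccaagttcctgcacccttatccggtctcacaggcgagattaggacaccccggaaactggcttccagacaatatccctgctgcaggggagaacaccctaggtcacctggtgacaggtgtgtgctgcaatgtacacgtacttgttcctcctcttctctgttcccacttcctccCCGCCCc
CFAP53: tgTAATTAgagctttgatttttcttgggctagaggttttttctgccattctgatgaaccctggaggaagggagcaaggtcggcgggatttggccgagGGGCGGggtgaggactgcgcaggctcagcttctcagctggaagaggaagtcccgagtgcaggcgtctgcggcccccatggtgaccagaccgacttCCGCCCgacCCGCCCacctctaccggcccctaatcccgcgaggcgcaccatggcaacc
TBX19: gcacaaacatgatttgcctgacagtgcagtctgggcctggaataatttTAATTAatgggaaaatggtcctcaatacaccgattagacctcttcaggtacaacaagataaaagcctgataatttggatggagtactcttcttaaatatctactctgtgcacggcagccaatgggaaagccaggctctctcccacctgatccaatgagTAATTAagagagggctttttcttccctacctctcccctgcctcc
SESN3: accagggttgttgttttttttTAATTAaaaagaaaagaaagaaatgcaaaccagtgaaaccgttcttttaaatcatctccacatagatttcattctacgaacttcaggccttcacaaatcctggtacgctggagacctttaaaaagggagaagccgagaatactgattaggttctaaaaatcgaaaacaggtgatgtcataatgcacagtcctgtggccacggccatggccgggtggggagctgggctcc

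SH2D3A holds 5 GC boxes in this stretch, CFAP53 has 3 and FUT3 has 1, whereas SERPINA3, TBX19 and SESN3 have none. TBX19 holds TAATTA at 2 places. The GC content of the 55 windows had a median of 62%, against 63% over all windows, and SERPINA3 with 42.3%, SESN3 with 45% and TBX19 with 46% lay well under it. None of the other motifs searched was in a larger share of these windows than of all windows. CCAAT was in 18 windows (32.7% against 36.3%), TATAAA in 4 (7.27% against 8.97%), the AP-1 site TGACTCA in 1 (1.82% against 3.67%) and the hypoxia response core ACGTGC in 3 (5.45% against 7.73%). The shorter cAMP response motif TGACGT, which also lies inside the full element, was in 4 windows (7.27% against 9.8%). The full cAMP response element TGACGTCA, the E-box CACGTG and the amino acid response element TGATGCAAT were in 0 of 55 windows, against 2.62%, 8.85% and 0.191% of all windows. The interferon-stimulated response element core was in 1 window, that of CFB, or 1.82% against 3.01%. A match describes letters and is not evidence of binding.

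SH2D3A and FUT3 were, with SERPINA3, the 3 genes whose bounds passed 4-fold. SH2D3A, an adaptor protein with an SH2 domain that couples receptors to downstream signalling, had raw intensities of 2704, 2771 and 1530 in HOXA5-overexpressing cells, against 1, 2 and 0 in normal control cells. Every HOXA5 overexpression value was far above the start of flag 0, and every control value was at background. The bound was at least 22.2-fold, and over the other settings it stayed between 15.5-fold and 32.0-fold. FUT3, the fucosyltransferase that builds the Lewis blood group antigens and the sialyl Lewis a structure read as CA19-9, had 580, 387 and 380 in HOXA5-overexpressing cells, against 2, 18 and 15 in normal control cells. The lowest HOXA5 overexpression value was more than any control value by a wide margin, and the change was at least 4.55-fold. Over the other settings the bound of FUT3 ran between 3.43-fold and 6.19-fold, so it did not pass 4-fold in all of them. SH2D3A was the 1 gene of the 68 on a list of 44 measured epithelial genes. Of the 43 other measured genes of epithelial junctions, mucins and epithelial regulators, 10 rose, 2 fell and 31 did not pass the adjusted p. Their median log2 fold change was 0.00. RNA of CDH1, which encodes the adhesion protein E-cadherin, rose by 1.40 ± 0.08 on the log2 scale (limma, adjusted p = 0.000615). For the protein, the study's Western blots of TFK-1 cells showed no significant change of E-cadherin with HOXA5 overexpression.

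**Figure D4:**
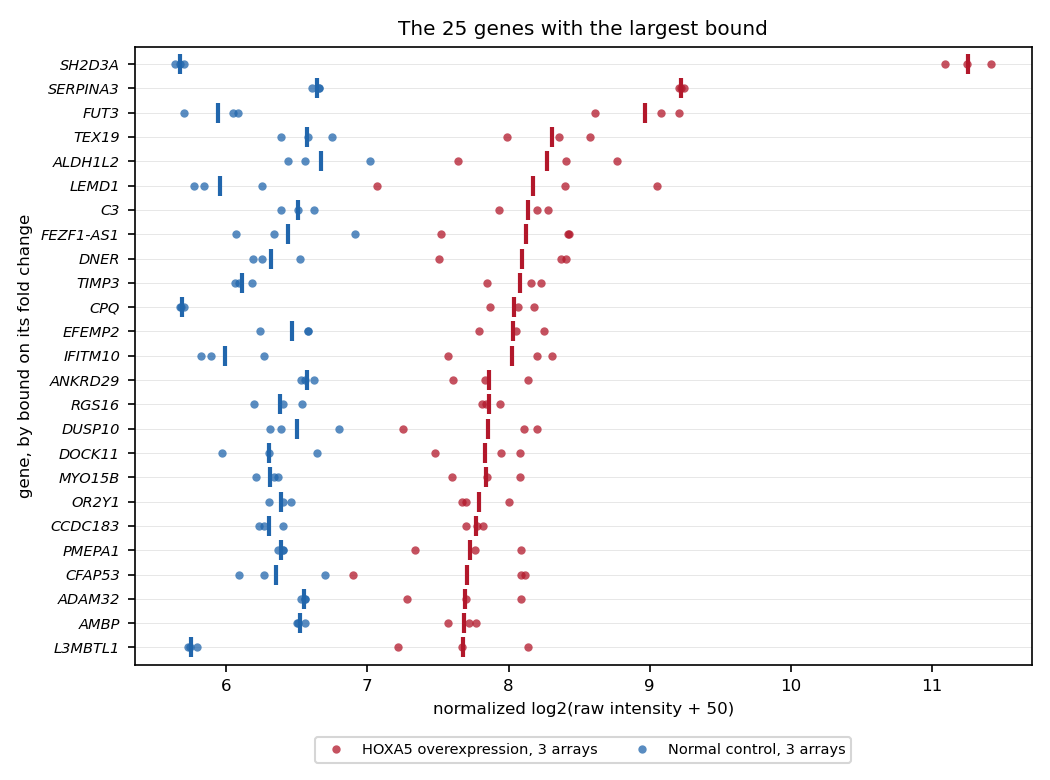
Normalized log2(raw intensity + 50) of the 25 genes with the largest bounds, with HOXA5 overexpression in red and normal control in blue. Each point is 1 array and each tick the mean of 3; SH2D3A lies near 11 in HOXA5 overexpression and under 6 in normal control, and the red points of LEMD1 spread the most.

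FUT3 lies on chromosome 19 between FUT6 and FUT5, its nearest relatives in the genome (gene order from RefSeq, GRCh38.p14), and neither of these showed its pattern. FUT6 had 54, 59 and 23 in HOXA5-overexpressing cells, against 83, 53 and 40 in normal control cells (log2 fold change -0.11 ± 0.08 SE, limma, adjusted p = 0.425). FUT5 had 31, 19 and 13 in HOXA5-overexpressing cells, against 12, 12 and 10 in normal control cells (0.26 ± 0.06 SE, limma, adjusted p = 0.0402). FUT5 thus passed the adjusted p upwards, but it was dim on all 6 arrays, and its change was far smaller than the 3.03 of FUT3. These paralogs are similar in sequence, and how far 1 probe takes up RNA of another was not tested. C3 and SH2D3A lie on the same chromosome with 2 measured genes between them, GPR108 and TRIP10. GPR108 rose (0.92 ± 0.14 SE, limma, adjusted p = 0.00987) and was detected on all 6 arrays, while TRIP10 had a log2 fold change of -0.64 ± 0.27 SE (adjusted p = 0.160). Beyond C3 on its other side lie TNFSF14, which was dim on all 6 arrays, and then CD70. CD70, a TNF family ligand, rose by 1.48 ± 0.17 on the log2 scale (limma, adjusted p = 0.00351). Of the 24 other measured genes that lie between FUT3 and SH2D3A, 5 rose, 2 fell and 17 did not pass the adjusted p. By chromosome, the 68 genes were spread over all autosomes and X, with 10 on chromosome 1 (14.7% of them against 9.96% of measured genes) and 6 on chromosome 19 (8.82% against 7.02%).

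Acute phase and complement genes formed the only list with more than 1 member, with 3 of 29 measured genes. SERPINA3, alpha-1-antichymotrypsin, a plasma inhibitor of neutrophil proteases, had raw intensities of 646, 609 and 379 in HOXA5-overexpressing cells, against 64, 54 and 41 in normal control cells. The value of 64 on normal control replicate 1 was above the lowest raw intensity at flag 0 on that array, 61. The detection p-value of SERPINA3 was under 0.01 on all control arrays, so it was dim there by the flag alone. The change was still at least 5.38-fold. C3, the component on which the complement pathways converge, had 308, 225 and 158 in HOXA5-overexpressing cells, against 42, 47 and 39 in normal control cells, a change of at least 2.56-fold. The detection p-value of this C3 probe was also under 0.01 on all control arrays, so C3 too was dim there by the flag alone. A second C3 probe gave the same direction with 129, 82 and 46 in HOXA5-overexpressing cells, against 17, 23 and 13 in normal control cells, and was at flag 0 on 2 of the 6 arrays. CFB, the protease of the alternative pathway that joins C3b in its convertase, had 117, 144 and 66 in HOXA5-overexpressing cells, against 65, 61 and 34 in normal control cells. It lay, together with TMCC2, nearest of the 68 genes to the detection limit, since the value of each on HOXA5 overexpression replicate 3 was 2 above the lowest raw intensity at flag 0. The bound of CFB was 1.45-fold. Its detection p-value was 0.0534 on HOXA5 overexpression replicate 3 and under 0.01 on normal control replicates 1 and 2.

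AMBP, the precursor of alpha-1-microglobulin and the protease inhibitor bikunin, was a further liver plasma protein gene among the 68, outside that list. It had 188, 164 and 107 in HOXA5-overexpressing cells, against 51, 47 and 36 in normal control cells, and the groups were apart by at least 1.87-fold. Of the 26 other complement and acute phase genes, 7 rose, 1 fell and 18 did not pass the adjusted p, with a median log2 fold change of 0.05. Those that rose were already detected in normal control cells: CD55, which protects cells from complement, rose by 1.76 ± 0.17 on the log2 scale (limma, adjusted p = 0.00230), and the inhibitors CFI and SERPING1 by 1.11 ± 0.08 (adjusted p = 0.000962) and 1.16 ± 0.11 (adjusted p = 0.00220). ITIH4, a plasma protein of the inter-alpha-inhibitor heavy chain family, rose by 1.71 ± 0.11 (limma, adjusted p = 0.000814). FGA, a fibrinogen chain, fell at the edge of detection (log2 fold change -0.26 ± 0.05 SE, limma, adjusted p = 0.0253). Among 33 other serpins measured 10 passed the adjusted p upwards and 0 downwards.

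Several of the genes act in the extracellular matrix or in proteolysis. TIMP3, a matrix-bound inhibitor of metalloproteinases, had 211, 288 and 153 in HOXA5-overexpressing cells, against 21, 20 and 19 in normal control cells. EFEMP2, fibulin-4, which organizes elastic fibres, had 253, 198 and 166 in HOXA5-overexpressing cells, against 57, 29 and 37 in normal control cells. CPQ, a secreted carboxypeptidase, had 257, 214 and 155 in HOXA5-overexpressing cells, against 1, 1 and 2 in normal control cells. CPQ thus combined a control signal at background with a moderate signal under HOXA5 overexpression, and its bound of 2.39-fold was close to the 2.46-fold of TIMP3 and the 2.37-fold of EFEMP2. ADAM32, a member of the ADAM protease family known from testis, had 185, 126 and 144 in HOXA5-overexpressing cells, against 53, 50 and 36 in normal control cells. CORIN, the membrane protease that activates the atrial natriuretic peptide precursor, had 137, 101 and 113 in HOXA5-overexpressing cells, against 10, 5 and 5 in normal control cells. Both stayed under a 2-fold bound, at 1.88-fold for ADAM32 and 1.55-fold for CORIN. MMRN2, a matrix glycoprotein of blood vessels, MMEL1, a relative of neprilysin, NTN5, a netrin-family protein, and PAEP, the secreted glycoprotein glycodelin, had bounds of 1.45-fold to 1.65-fold. For NTN5 the lowest HOXA5 overexpression value, 68 on replicate 3, stood against 29, 25 and 19 in normal control cells.

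A pair of genes that are normally restricted to the germline was among the leading 6. TEX19, which is expressed in germ cells and pluripotent cells, had 391, 236 and 183 in HOXA5-overexpressing cells, against 42, 52 and 45 in normal control cells, a change of at least 2.88-fold. LEMD1, a cancer/testis antigen with a LEM domain, had 566, 103 and 189 in HOXA5-overexpressing cells, against 9, 5 and 22 in normal control cells. Its HOXA5 overexpression arrays differed by more than those of any other of the 68 genes, 5.50-fold in raw intensity, and the change was at least 2.62-fold. LEMD1 and TMCC2, another of the 68, lie near each other on chromosome 1, and the 3 measured genes between them, NUAK2, KLHDC8A and LEMD1-AS1, did not pass the adjusted p. The long noncoding RNA FEZF1-AS1 had 348, 156 and 193 in HOXA5-overexpressing cells, against 39, 19 and 53 in normal control cells (at least 2.53-fold). MIR600HG, the host transcript of a microRNA, had 171, 97 and 72 in HOXA5-overexpressing cells, against 63, 66 and 51 in normal control cells, and was 1 of the 4 genes that did not pass the adjusted p.

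Several of the genes encode brakes on signalling. RGS16, which speeds the shutdown of G proteins, had 210, 227 and 111 in HOXA5-overexpressing cells, against 54, 39 and 20 in normal control cells. DUSP10, a phosphatase of the stress kinases p38 and JNK, had 267, 122 and 158 in HOXA5-overexpressing cells, against 37, 38 and 47 in normal control cells. PMEPA1, a TGF-beta-induced inhibitor of SMAD signalling, had 135, 257 and 106 in HOXA5-overexpressing cells, against 41, 39 and 28 in normal control cells. Bounds were 2.12-fold for RGS16, 2.10-fold for DUSP10 and 1.93-fold for PMEPA1, and the HOXA5 overexpression arrays agreed best for RGS16 after normalization (SD 0.07 on the log2 scale, against 0.53 for DUSP10 and 0.37 for PMEPA1). SPRY2, a feedback inhibitor of receptor tyrosine kinases, lay close to the limit with 127, 151 and 67 in HOXA5-overexpressing cells, against 57, 54 and 52 in normal control cells. MOSMO, which attenuates Hedgehog signalling, had 171, 97 and 139 in HOXA5-overexpressing cells, against 1, 2 and 2 in normal control cells. MOSMO was at background in normal control cells, yet its faint signal under HOXA5 overexpression limited the bound to 1.71-fold.

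SPRY2 was the 1 gene of the 68 among 41 measured growth factor receptors, ligands and feedback inhibitors. Of the 40 others 12 rose and 2 fell, and its relatives were already detected in normal control cells: SPRY1 rose by 0.99 ± 0.10 (limma, adjusted p = 0.00257) and SPRY4 by 1.33 ± 0.27 (limma, adjusted p = 0.0220) on the log2 scale. MAP3K8, the kinase TPL2 that activates MEK in inflammatory signalling, had 137, 171 and 82 in HOXA5-overexpressing cells, against 3, 2 and 3 in normal control cells. The control values were at background and the bound was 1.64-fold. DOCK11, an exchange factor for CDC42, had 232, 151 and 142 in HOXA5-overexpressing cells, against 16, 33 and 40 in normal control cells (at least 2.08-fold). TIAM2, an exchange factor for Rac, had 145, 112 and 100 in HOXA5-overexpressing cells, against 51, 62 and 42 in normal control cells (at least 1.56-fold). Both exchange factors turn on small GTPases of the cytoskeleton, and DOCK11 was the farther of the pair from the detection limit.

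Receptors, channels and other membrane proteins made up a further group. DNER, a Notch-like receptor best known in neurons, had 332, 154 and 191 in HOXA5-overexpressing cells, against 33, 26 and 34 in normal control cells. IFITM10, of the interferon-induced transmembrane family, had 288, 163 and 175 in HOXA5-overexpressing cells, against 12, 31 and 6 in normal control cells. BDKRB2, the bradykinin B2 receptor, had 141, 131 and 90 in HOXA5-overexpressing cells, against 12, 16 and 11 in normal control cells. DNER at at least 2.49-fold and IFITM10 at at least 2.37-fold exceeded 2-fold, and BDKRB2 did not (1.57-fold). OR2Y1, an olfactory receptor, had 181, 184 and 134 in HOXA5-overexpressing cells, against 36, 39 and 31 in normal control cells (at least 2.01-fold), and it was the only one of 297 measured olfactory receptors with the pattern. TMEM178A, a transmembrane protein, had 206, 94 and 129 in HOXA5-overexpressing cells, against 13, 8 and 9 in normal control cells. Replicate 2 was the lowest of its HOXA5 overexpression arrays, and all of its control values were close to background.

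GPR143, the receptor of pigment cell melanosomes, was the 1 gene of the 68 with a second probe at flag 0 on all HOXA5 overexpression arrays. Its representing probe had 173, 154 and 80 in HOXA5-overexpressing cells, against 61, 62 and 44 in normal control cells, and the second had 156, 113 and 71 in HOXA5-overexpressing cells, against 35, 33 and 27 in normal control cells. Both probes thus showed the pattern. ROR1, a receptor tyrosine kinase-like Wnt receptor, had 168, 112 and 111 in HOXA5-overexpressing cells, against 48, 48 and 37 in normal control cells, and its 2 other probes were dim on all 6 arrays. TENM3, a teneurin of neuronal wiring, KCNN3, a calcium-activated potassium channel, and CD47, which signals to phagocytes not to engulf a cell, had bounds of 1.64-fold to 1.71-fold. CD47 had normalized log2 intensities of 7.63, 6.99 and 7.87 in HOXA5-overexpressing cells, against 6.58, 6.50 and 6.85 in normal control cells. On this scale HOXA5 overexpression replicate 2 came close to the control values, and CD47 did not pass the adjusted p.

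Metabolic enzymes and transporters were led by ALDH1L2, the mitochondrial enzyme that oxidizes formyltetrahydrofolate. ALDH1L2 had 342, 174 and 262 in HOXA5-overexpressing cells, against 55, 42 and 61 in normal control cells. The change was at least 2.79-fold, and its other probe was dim throughout, with 46, 44 and 30 in HOXA5-overexpressing cells and 21, 20 and 19 in normal control cells. CYP11A1, which cleaves the cholesterol side chain in the first step of steroid synthesis, had 156, 182 and 90 in HOXA5-overexpressing cells, against 55, 20 and 5 in normal control cells. TBXAS1, thromboxane synthase, had 161, 105 and 103 in HOXA5-overexpressing cells, against 33, 18 and 29 in normal control cells. ABCG1, which exports cholesterol from cells, had 136, 130 and 97 in HOXA5-overexpressing cells, against 37, 33 and 23 in normal control cells. These 3 had bounds of 1.76-fold, 1.59-fold and 1.58-fold. ABCG1 was the 1 gene of the 68 among 39 measured genes of bile acid, drug and hepatobiliary transport, and of the 38 others 4 rose, 3 fell and 31 did not pass the adjusted p.

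GSTM4, a glutathione S-transferase of the mu class, had 191, 154 and 74 in HOXA5-overexpressing cells, against 43, 57 and 28 in normal control cells by its single-symbol probe. A pair of probes that carry GSTM4 together with other symbols were bright on all control arrays, and the first of them had 885, 812 and 386 in HOXA5-overexpressing cells and 1405, 1141 and 648 in normal control cells. GSTM4 is therefore uncertain as a member, and counting such probes would leave 67 genes. SLC1A6, a glutamate transporter, and SLC4A5, a sodium bicarbonate cotransporter, were the 2 solute carriers of the 68 out of 380 measured, with bounds of 1.57-fold and 1.53-fold. GNMT, the liver enzyme that uses S-adenosylmethionine to methylate glycine, had 126, 91 and 95 in HOXA5-overexpressing cells, against 53, 55 and 54 in normal control cells. It did not pass the adjusted p, and its groups were separated only narrowly. PHOSPHO1, a phosphatase of bone mineralization, had 131, 137 and 79 in HOXA5-overexpressing cells, against 59, 67 and 48 in normal control cells. SARM1, an NAD hydrolase of axon degeneration, had a bound of 1.41-fold.

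Among nuclear factors, L3MBTL1, a chromatin protein that binds methylated histones, had 180, 119 and 150 in HOXA5-overexpressing cells, against 4, 6 and 3 in normal control cells. Its controls were at background and its bound was 1.86-fold. TBX19, the T-box factor of pituitary corticotropes, had 123, 123 and 77 in HOXA5-overexpressing cells, against 32, 56 and 34 in normal control cells. HLX, a homeobox factor, had 125, 113 and 94 in HOXA5-overexpressing cells, against 44, 55 and 49 in normal control cells. CSRNP1, an AXIN1-induced nuclear protein, had 147, 194 and 78 in HOXA5-overexpressing cells, against 58, 7 and 37 in normal control cells. All 3 stayed under a 2-fold bound, and CSRNP1 had the widest control values of them. Of 577 measured zinc finger genes 2 were among the 68, ZNF585A and ZNF25, with bounds of 1.48-fold and 1.41-fold. SESN3, a stress-inducible sestrin that FoxO factors activate, had 119, 97 and 83 in HOXA5-overexpressing cells, against 45, 44 and 41 in normal control cells (at least 1.38-fold). It was the 1 gene of the 68 among 26 measured FoxO pathway genes. Of the 25 others 13 rose, 3 fell and 9 did not pass the adjusted p, with a median log2 fold change of 0.47. Picked from those that rose, KLF2 changed by 2.03 ± 0.11 (limma, adjusted p = 0.000669), BCL6 by 2.08 ± 0.14 (limma, adjusted p = 0.000949) and CCNG2 by 1.96 ± 0.08 (limma, adjusted p = 0.000345) on the log2 scale. Activity of FoxO factors was not tested.

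Genes of the cytoskeleton and cilia included MYO15B, an unconventional myosin, with 212, 168 and 142 in HOXA5-overexpressing cells, against 30, 35 and 27 in normal control cells (at least 2.09-fold). CFAP53, a protein of cilia and flagella, had 261, 86 and 148 in HOXA5-overexpressing cells, against 34, 20 and 43 in normal control cells. The highest and the lowest of these HOXA5 overexpression values differed by 3.03-fold. After normalization HOXA5 overexpression replicate 2 stood apart, with a log2 intensity of 6.90 against 8.09 and 8.12 on replicates 1 and 3. CFAP53 was the gene with the largest bound (1.89-fold) that did not pass the adjusted p. ANKRD29, an ankyrin repeat protein, had 207, 169 and 150 in HOXA5-overexpressing cells, against 56, 48 and 39 in normal control cells (at least 2.11-fold). CCDC183, a coiled-coil protein, had 185, 204 and 108 in HOXA5-overexpressing cells, against 34, 39 and 21 in normal control cells (at least 1.98-fold). FAM221A had 176, 148 and 119 in HOXA5-overexpressing cells, against 5, 3 and 13 in normal control cells (at least 1.83-fold). The controls of FAM221A were close to background, and those of ANKRD29 came nearer to the detection limit. SYNE1, the nuclear envelope protein nesprin-1, SH3GL3, an endophilin of vesicle uptake, and POPDC1, a cAMP-binding membrane protein of heart and muscle, had bounds of 1.32-fold to 1.72-fold, and POPDC1 the smallest of all 68. The remaining genes, PLEKHB1, RBBP8NL, TMCC2, GOLGA7B, RNF112 and PCMTD1, had bounds of 1.41-fold to 1.82-fold.

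**Figure D5:**
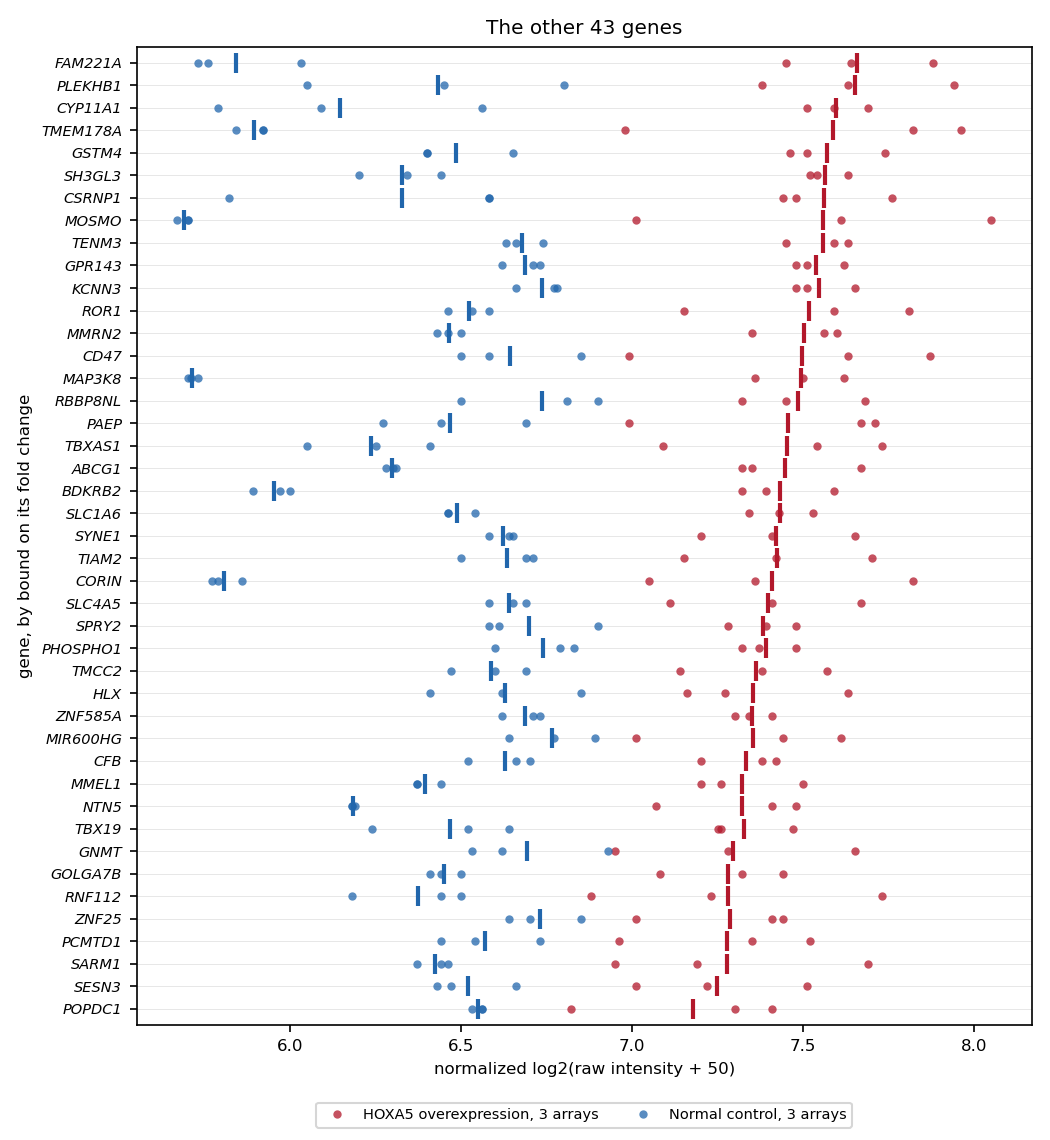
Normalized log2(raw intensity + 50) of the 43 genes with the smaller bounds, with HOXA5 overexpression in red and normal control in blue, each point 1 array and each tick the mean of 3. The groups do not overlap for any gene, which the rule all but fixed, and MOSMO, MAP3K8, FAM221A, TMEM178A, CORIN and BDKRB2 have control values close to background.

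The edge of the rule was narrow. Just inside it were CFB and TMCC2 with 66 on HOXA5 overexpression replicate 3, SPRY2 with 67 and NTN5 and ZNF585A with 68 on the same array. Just outside it were GATA3 (134, 126 and 63 in HOXA5-overexpressing cells, against 64, 64 and 48 in normal control cells) and SLIT2 (112, 115 and 63 in HOXA5-overexpressing cells, against 60, 49 and 30 in normal control cells), both dim on HOXA5 overexpression replicate 3 only. GRIK2 with 107, 66 and 68 in HOXA5-overexpressing cells, against 27, 18 and 20 in normal control cells, was dim on HOXA5 overexpression replicate 2 only. MOB3A and PCDHA2 had 62 on HOXA5 overexpression replicate 3 and also fell outside. Some of the 68 genes were dim on a control array at raw intensities above the lowest at flag 0 there. On normal control replicate 1, where flag 0 began at 61, CFB had 65, SERPINA3 and KCNN3 64, MIR600HG and ZNF25 63 and TENM3 62. On replicate 2, where it began at 64, RBBP8NL had 68 and PHOSPHO1 67. On replicate 3, where it began at 58, ALDH1L2 had 61.

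Other probes of the same genes were few. For 10 of the 68 genes the array held 13 further single-symbol probes, of which 10 were dim on all 6 arrays, 2 were at flag 0 on some HOXA5 overexpression arrays and 1, of GPR143, on all 3. Of the 13, 4 passed the adjusted p upwards and 0 downwards (limma), and 1 of these 4, of ALDH1L2, was dim on all 6 arrays. Over all 18336 genes 2399 rose and 2010 fell. The rule had left out genes with another probe at flag 0 on a control array. The 13 probes are therefore a selected set, and their directions are no independent check of the 68 genes. SLC4A5 had a further probe with 74, 84 and 38 in HOXA5-overexpressing cells, against 39, 32 and 26 in normal control cells. The other probes of TENM3, ROR1, SLC1A6, TBXAS1, GOLGA7B and POPDC1 were dim on all 6 arrays, and a dim probe bears on neither outcome. The result for the other genes rests on a single probe each.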

How the data were processed

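RNA of 6 TFK-1 samples (3 per group) was turned into Cy5-labelled antisense RNA and hybridized to Human OneArray slides of 31741 probes, which were read by an Agilent scanner. In the first table the authors deposited a linear raw intensity for every probe on every array, each with a flag and a detection p-value. What the flags mean, and with which software and background method the values were extracted, is not given in the sources used here. A second deposited table holds intensity normalized by the authors with GeneSpring and was used as an alternative; in the values, each of its columns is a multiple of the raw column. Depth has no counterpart on arrays, and the small number of arrays limits the precision.

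Here, log2 was taken of the raw intensity plus 50, arrays were quantile normalized, and limma 3.58.1 (R 4.3.3) was fitted to every probe by lmFit and eBayes, with two-sided p-values adjusted by Benjamini-Hochberg over the 31741 probes. "Rose" and "fell" mean an adjusted p under 0.05. The offset makes fold changes and bounds of dim probes smaller on this scale. The high floor of HOXA5 overexpression replicate 3 makes the bounds of the 68 genes larger. Of the probes, 24740 carried 1 symbol, 977 several and 6024 none; 1948 symbols were updated through RefSeq synonyms, 4 of them among the 68 genes. Counts over all genes took, for each gene, the probe of highest mean. The bound took the lowest normalized value at flag 0 on each control array as the floor. The 21 gene lists, the symbol families and the motifs, like the 68 genes, were chosen with earlier results of these data known. The genes named are HOXA5, the 25 with the largest bound, those on a list or in a symbol family, those closest to the limit, those with other probes detected and those not past the adjusted p; all others were named to account for every gene, and genes outside the 68 were picked with their values in view. Simulated data with known changes were used to test the steps. Alternatives were other scaling, offsets of 16 and 100, a filter on dim probes, a replicate block, eBayes with trend and robust, detection by p-value, a raw minimum of 100, other treatment of symbols and probes, and each array left out in turn.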

Additional observations from a re-analysis of the deposited data

Results flagged for a closer look

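Probes without a single gene symbol, outside the genes described above, were counted by the same flags. Of 977 probes with several gene symbols, 3 were at flag 0 on all HOXA5 overexpression arrays and dim on all control arrays. Of 6024 probes with no symbol 21 were so too. The exchanged pattern was nearly as frequent, with 2 and 17 probes. Among the 24740 probes with 1 symbol, 90 had the pattern and 70 the exchanged one. The CYP4F2 and CYP4F3 probe had 287, 160 and 199 in HOXA5-overexpressing cells, against 31, 38 and 33 in normal control cells (at least 2.43-fold). A probe shared by 5 amylase genes was higher by at least 2.23-fold and one shared by TTLL3 and its readthrough transcript by at least 1.89-fold. The largest bound of the probes with no symbol was 2.49-fold. No test was made of these probes, which were picked by the same flags.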

How the results depend on the processing

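All 68 genes had higher values in HOXA5-overexpressing cells under every setting tried, and no change reversed. The number called higher by limma, 39 as reported, was 59 with an offset of 16 and 25 with an offset of 100, and the median bound was 2.01-fold and 1.48-fold with these offsets, against 1.70-fold with 50; the offset sets how far dim values are pulled together. The number of genes with a bound of at least 2-fold, 19 as reported, was 35 with an offset of 16 and 10 with an offset of 100. With each array left out in turn the number called was 30 to 44 and the median bound 1.61-fold to 1.82-fold. Other scaling, the filter, and eBayes with trend and robust gave 37 to 41 called. The number of genes was 43 by detection p-value and 30 with a raw minimum of 100, against 68. Leaving out an array gave 69 to 203 genes, the highest without HOXA5 overexpression replicate 3, and 37 to 134 genes for the exchanged rule, the highest without HOXA5 overexpression replicate 1. Keeping genes with other detected probes gave 89 genes, and the platform's own symbols 69, of which 64 were shared. Samples with the same replicate number deviated together for numbers 2 and 3 but not for number 1 (r of 0.642, 0.733 and -0.149 over probes). Samples with unlike numbers had r of -0.776 to 0.483. These r are not independent, since deviations were taken from the mean of each group. They cannot settle whether the numbers pair the samples, and the labels name no pairing. With the replicate number as a block 40 genes were called. Signal over background limits the precision, since 38 of the 68 genes had a raw intensity under 100 on at least 1 HOXA5 overexpression array.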

Other observations

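The 21 genes left out because another probe was detected in normal control cells split by how those probes moved. Of their 32 other probes, 11 rose, 3 fell and 18 did not pass the adjusted p (limma). KLHL24, BMF and HLA-DPA1 rose on the other probes too: a second KLHL24 probe had 540, 549 and 368 in HOXA5-overexpressing cells, against 113, 95 and 51 in normal control cells (log2 fold change 2.07 ± 0.09 SE, limma, adjusted p = 0.000383). HLA-DPA1, an MHC class II chain, had 345, 512 and 240 in HOXA5-overexpressing cells, against 155, 157 and 97 in normal control cells on its other probe (1.22 ± 0.16 SE, limma, adjusted p = 0.00560). HNRNPU, an RNA-binding nuclear matrix protein, went both ways. Its dim-to-detected probe had 189, 164 and 135 in HOXA5-overexpressing cells, against 41, 39 and 25 in normal control cells, while its 3 other probes fell, 1 of them with 7268, 5679 and 3889 in HOXA5-overexpressing cells, against 10973, 9292 and 7806 in normal control cells (-0.54 ± 0.11 SE, limma, adjusted p = 0.0240). For AMIGO2, HOXA5 overexpression replicate 2 stood apart on both detected probes, with 532 against 124 and 69 on replicates 1 and 3 by one and 737 against 73 and 48 by the other.

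Among the 37 genes detected only in normal control cells were AKR1B10, a carbonyl reductase, with 46, 10 and 32 in HOXA5-overexpressing cells and 180, 164 and 158 in normal control cells, and the death receptor gene FAS, with 60, 46 and 33 in HOXA5-overexpressing cells and 190, 150 and 125 in normal control cells. Their bounds, control over HOXA5 overexpression, were at least 1.76-fold and 1.65-fold. The median over the 37 was 1.18-fold.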
